A study of Arabidopsis thaliana with 9 samples.

Results

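Reactive oxygen metabolism in imbibed Arabidopsis thaliana seeds was followed through 9 genes, set by their locus identifiers for their known roles. Earlier results of these data were known when they were chosen, so they are not a blind choice. They were PER1 (AT1G48130), CAT1 (AT1G20630), CAT2 (AT4G35090), CAT3 (AT1G20620), APX6 (AT4G32320), RBOHB (AT1G09090), RBOHD (AT5G47910), CSD1 (AT1G08830) and VTC2 (AT4G26850). These are 9 of 22555 genes in the deposited tables. A filter on low values, at least 1 FPKM in at least 3 of the 9 libraries, kept 13679 genes for testing and 8 of the 9; RBOHB did not pass it. FPKM is fragments counted per transcript, divided by the transcript's length and by the library's mapped fragments, so it can be compared between genes of different length.

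Dry and imbibing seeds make superoxide and hydrogen peroxide, which act as oxidants and, at low levels, as signals in the release of dormancy. Plasma membrane NADPH oxidases of the RBOH family produce superoxide, superoxide dismutases turn it into hydrogen peroxide, and catalases, peroxiredoxins and ascorbate peroxidases remove the peroxide, the last of these with ascorbate as electron donor. Gibberellin promotes germination by removing DELLA repressors such as RGL2, and DOF6 is a transcription factor of the DOF family that restrains germination.

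The study sequenced RNA from freshly harvested seeds imbibed for 8 h, with 3 libraries in each of 3 groups. The first group was DOF6ioex, a line in which estradiol induces DOF6 overexpression, imbibed without the inducer (called mock in the titles and water in the treatment field). The second was DOF6ioex in 50 µM β-estradiol, and the third was the same transgene in the rgl2-13 background, also in 50 µM β-estradiol. All 9 libraries therefore carry the inducible DOF6 transgene. No seeds without the transgene were given estradiol and no rgl2-13 seeds were imbibed without it, so the effect of estradiol itself and that of DOF6 cannot be told apart. The labels do not say whether replicates came from separate plants or harvests, so the p-values measure only the spread between these libraries. They also do not say how many independent transgenic lines were used.

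The checks of the labels were as follows. DOF6 was listed at 0.64, 0.86 and 0.41 FPKM in mock and at 33.73, 32.05 and 36 FPKM in DOF6ioex with estradiol, a fitted difference of 4.42 ± 0.24 on the log2(FPKM + 1) scale (SE, limma adjusted p = 7.386e-06). In the libraries labelled rgl2-13 DOF6ioex DOF6 was uneven, at 52.25, 21.43 and 27.54 FPKM, the highest in library 1. Its mean there was 33.7 ± 16.3 FPKM, beside 33.9 ± 1.98 FPKM in DOF6ioex with estradiol (SD, n = 3 each). The fitted difference between these groups was -0.11 ± 0.24 log2 (SE, limma adjusted p = 0.824). RGL2 was at 8.02, 7.57 and 10.17 FPKM in DOF6ioex with estradiol and at 17.92, 16.15 and 18.82 FPKM in the libraries labelled rgl2-13 DOF6ioex, so the transcript of the gene named in the label rose there by 0.97 ± 0.14 log2 (limma adjusted p = 0.0184). For that reason these are called the libraries labelled rgl2-13 DOF6ioex, and directions drawn from them are those of the label. The seed label was checked with 10 storage protein and oil body genes, which summed to between 91091 and 140373 FPKM per library, while 7 leaf photosynthesis genes summed to between 21.5 and 41.7 FPKM. Library 1 labelled rgl2-13 DOF6ioex stood apart: on the first principal component of all tested genes, with 45.6% of the variance, it lay at 37.3 and the other 8 libraries between -12.9 and 7.13. Results that rest on it are therefore also given without it. Depth, estimated from the steps between low values, was 29400000 to 31300000 fragments per library.

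For 2 of the genes the sequence before the annotated gene start is shown first, because PER1 was the most abundant gene of the group and RBOHD had the largest fitted difference between groups. The 250 bases come from the RefSeq TAIR10.1 assembly, read 5′ to 3′ on the plus strand. In PER1 (chr1:17780179-17780428, gene on the plus strand) the capitals mark CACGTG, the G-box, which holds ACGTG, the core of the abscisic acid response element, on both strands. In RBOHD (chr5:19396791-19397040, gene on the plus strand) the capitals mark AAAG or its reverse complement CTTT, the core recognised by DOF proteins.
PER1 upstream: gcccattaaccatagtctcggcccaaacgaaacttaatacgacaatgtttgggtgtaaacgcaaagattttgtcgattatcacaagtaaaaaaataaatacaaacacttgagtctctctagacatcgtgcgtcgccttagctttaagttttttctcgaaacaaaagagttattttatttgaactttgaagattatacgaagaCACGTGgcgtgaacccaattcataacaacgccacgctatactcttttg
RBOHD upstream: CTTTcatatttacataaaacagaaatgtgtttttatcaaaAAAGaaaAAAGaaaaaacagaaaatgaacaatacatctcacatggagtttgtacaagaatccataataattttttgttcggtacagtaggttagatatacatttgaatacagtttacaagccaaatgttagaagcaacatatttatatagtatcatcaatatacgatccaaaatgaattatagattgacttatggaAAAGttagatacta
The CACGTG of PER1 begins 48 bases before the gene start, and 6.49% of 27437 windows of the same length before annotated genes hold that motif on either strand. The RBOHD window has 4 AAAG cores, at 250, 210, 203 and 14 bases before the start, and no ACGTG. AAAG was present in 98.0% of all windows with a median of 4, so 4 is the usual number, and ACGTG in 22.9%. PER1 has 5 AAAG cores. Among the other 7 genes ACGTG occurs 2 times before CSD1, 1 time before CAT1 and 1 time before VTC2, and it was not found in this window of CAT2, CAT3, APX6 or RBOHB. A match is a string of letters and not a site shown to be bound. CAT3 and CAT1 lie in tandem on chromosome 1, with 95 bases between them on the same strand, so the window of CAT1 reaches into CAT3.

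The levels of the 9 genes ran from 0.01 to 3562.16 FPKM and were ordered alike in nearly every library. PER1, a 1-Cys peroxiredoxin of embryo and aleurone used as a dormancy-related marker, was the highest at 3023 FPKM averaged over the 9 libraries and ranked 33 among the 13679 tested genes. CAT3 and CAT2, catalases that break down hydrogen peroxide in peroxisomes, followed at 1510 and 1166 FPKM. VTC2, the GDP-L-galactose phosphorylase that commits carbon to ascorbate, averaged 105 FPKM, and CAT1, the lowest of the catalase genes here, 71.9 FPKM. RBOHD averaged 36.7 FPKM, CSD1, the cytosolic copper/zinc superoxide dismutase, 30.6 FPKM, and APX6, an ascorbate peroxidase described in Arabidopsis seeds, 13.5 FPKM. RBOHB stood below all of them, at 0.01 to 0.11 FPKM.

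**Figure D1:**
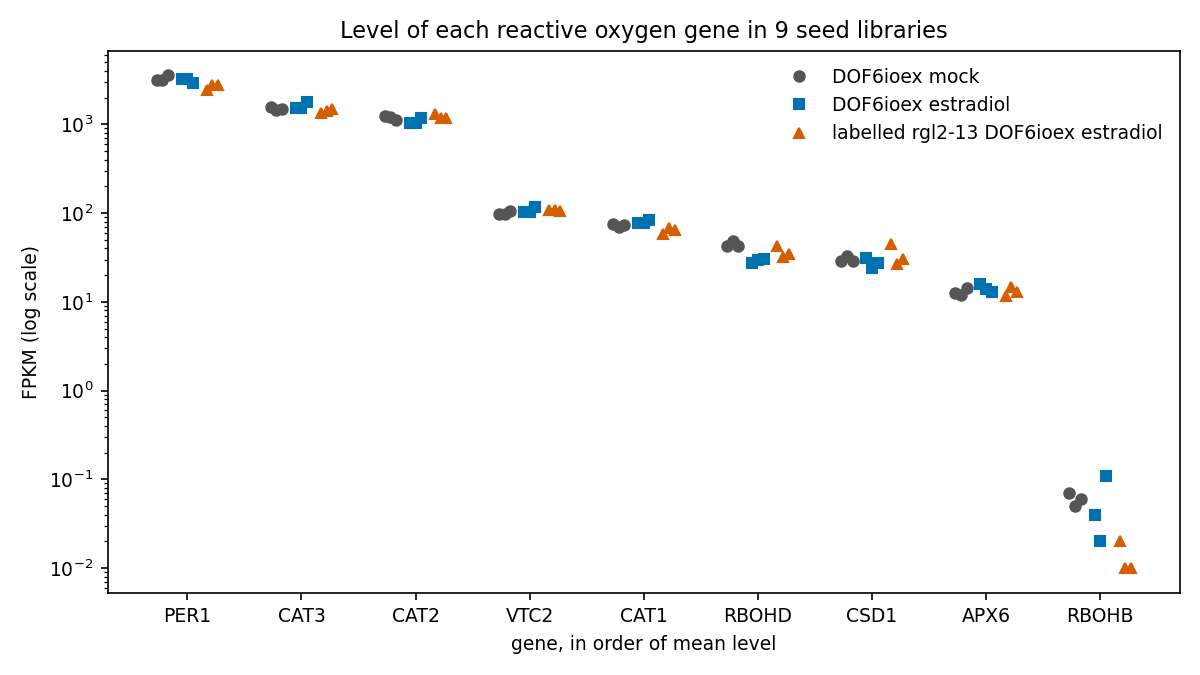
Level of each of the 9 genes in FPKM (log axis) in each of the 9 libraries, ordered by mean level; circles are DOF6ioex mock, squares DOF6ioex estradiol and triangles the libraries labelled rgl2-13 DOF6ioex estradiol. PER1 lies between 2463.48 and 3562.16 FPKM in every library and RBOHB at or under 0.11 FPKM, while RBOHD and CSD1 are the neighbours whose ranges overlap.

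Neighbours in this order had separate ranges over the 9 libraries except RBOHD and CSD1. RBOHD was above CSD1 in 7 of 9 libraries, so the order of those genes does not stand beyond their spread. CAT3 and CAT2 were close: the lowest CAT3 library was at 1335.88 FPKM and the highest CAT2 library at 1324.77 FPKM, although CAT3 was above CAT2 within all 9 libraries. The largest step between neighbours that passed the filter was from CAT2 to VTC2, with a ratio of means of 11.1. Within a gene the highest library was 1.18 times the lowest for VTC2, the steadiest of the 8, and 1.85 times for CSD1, the highest ratio of the 8. The CSD1 ratio rests on library 1 labelled rgl2-13 DOF6ioex at 44.73 FPKM, as CSD1 was at 24.21 to 33.17 FPKM in the others. RBOHD had a ratio of 1.74 and a larger SD of log2(FPKM + 1) over the 9 libraries, 0.282 against 0.243 for CSD1.

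None of the 8 tested genes passed the threshold of adjusted p under 0.05 in any of the 3 comparisons (limma with Benjamini-Hochberg adjustment over 13679 genes). At an unadjusted p under 0.05, 1 of the 8 differed with estradiol, namely RBOHD, and 3 of the 8, PER1, CAT1 and RBOHD, differed in each comparison of the labelled libraries. Over all tested genes 6.82% differed at that level with estradiol, 15.2% between the labelled libraries and DOF6ioex, and 25.2% between them and mock. Over all genes, 0.154% were called in DOF6ioex estradiol against mock, 0.161% when the labelled libraries were compared with DOF6ioex given the same estradiol, and 0.57% when they were compared with mock and the count of 0 of 8 is to be read against those shares. The third comparison changes genotype and treatment together and shares its libraries with the other 2, so its values are set beside theirs and are not separate evidence. The authors' deposited table of genes above their threshold lists 228 genes for estradiol against mock and 248 for the label against DOF6ioex, and none of the 9 is in either list; the smallest absolute log2 fold change in those lists is 2.02 and 2.0.

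**Figure D2:**
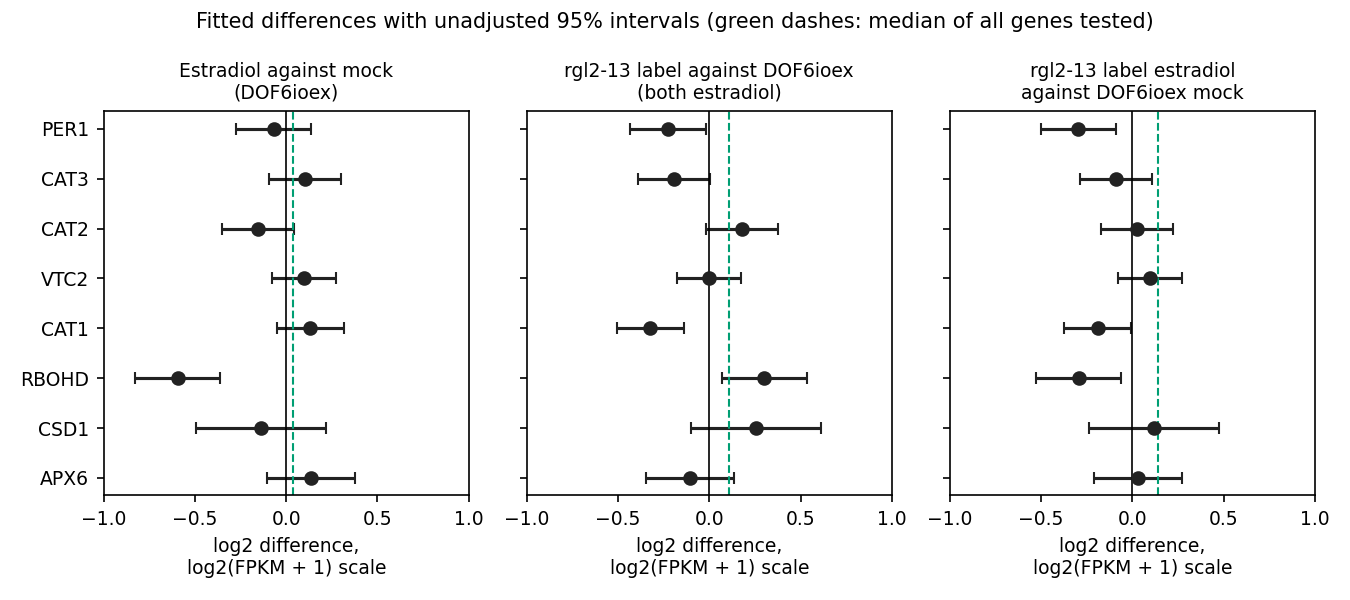
Fitted log2 difference on the log2(FPKM + 1) scale of each tested gene in the 3 comparisons (points), with unadjusted 95% intervals (bars) and the median of all tested genes (dashed line). RBOHD at -0.59 in estradiol against mock lies farthest from 0, and no gene passed the adjusted threshold.

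RBOHD encodes an NADPH oxidase that makes superoxide at the plasma membrane. It was at 42.67, 48.17 and 43.03 FPKM in mock and at 27.74, 29.64 and 30.22 FPKM in DOF6ioex with estradiol. Every estradiol library was below every mock library, and the highest estradiol library lay 12.45 FPKM under the lowest mock library. Group means were 44.6 ± 3.08 and 29.2 ± 1.3 FPKM (SD, n = 3 each). The fitted difference was -0.59 ± 0.11 log2 (SE, 95% interval -0.83 to -0.36), a ratio of 0.663 in FPKM + 1. Its limma adjusted p was 0.0647, just outside the threshold. Groups did not overlap in 14.9% of all tested genes in this comparison, and 4.31% were apart in the lower direction; of the 8 genes, RBOHD was apart in the lower direction and CAT1 in the higher, in which 10.6% of all genes were apart.

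The adjusted p of RBOHD differed between settings while its fitted difference moved little. In the libraries labelled rgl2-13 DOF6ioex it was at 42.59, 32.43 and 34.21 FPKM, the first within 0.08 FPKM of the lowest mock library and the other 2 nearer to the estradiol group. Without that first library, which adds to the pooled spread and not to either mean, the difference of -0.59 had an adjusted p of 0.00142, and with only the 6 libraries compared 0.0022. Without replicate 2 of that group it was 0.0245. Median-of-ratios scaling gave -0.64 with an adjusted p of 0.00697 and upper quartile scaling -0.64 with 0.00501. The direction was the same in 15 of 15 alternatives, between -0.64 and -0.54 log2. With no filter on low values the difference was also -0.59 and the adjusted p 0.387. The adjusted p ran from 0.00142 to 0.42, the highest without mock replicate 2. It passed the threshold in 5 of the 15.

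**Figure D3:**
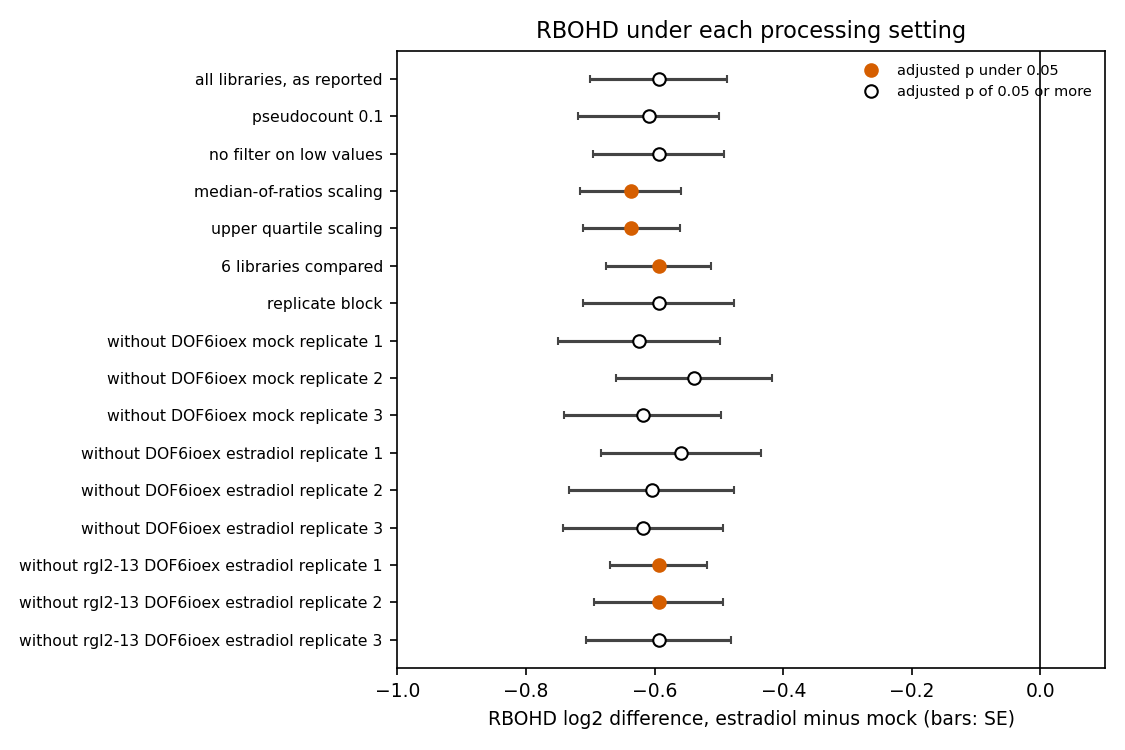
RBOHD, DOF6ioex estradiol minus mock, as log2 difference on the log2(FPKM + 1) scale with its SE, under the reported fit and each of 15 alternatives; filled points have an adjusted p under 0.05. Every point lies between -0.64 and -0.54, and 5 are filled.

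Between the labelled libraries and DOF6ioex, both in estradiol, RBOHD was higher in every library of the former than in every library of the latter, with means of 36.4 ± 5.43 and 29.2 ± 1.3 FPKM (SD, n = 3 each). Groups did not overlap in 20.7% of all tested genes in that comparison. The fitted difference was 0.30 ± 0.11 log2 (95% interval 0.07 to 0.53; limma adjusted p = 0.26) and 0.18 log2 without library 1 labelled rgl2-13 DOF6ioex (adjusted p = 0.566). Against mock the labelled libraries were lower, by a fitted -0.29 ± 0.11 log2 (limma adjusted p = 0.139), and the groups were apart by 0.08 FPKM, where 30.8% of all tested genes did not overlap. Without library 1 that difference was -0.41 log2 with an adjusted p of 0.0412, and under the median-of-ratios and upper quartile scalings it was -0.45 and -0.44 log2 with adjusted p of 0.0317 and 0.028. The median of all genes was itself shifted, by 0.0391, 0.107 and 0.14 log2 in the 3 comparisons; relative to it RBOHD stood at -0.63, 0.19 and -0.43 log2.

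RBOHB, the NADPH oxidase that in Arabidopsis has been tied to seed after-ripening, was at 0.07, 0.05 and 0.06 FPKM in mock, at 0.04, 0.02 and 0.11 FPKM with estradiol, and at 0.02, 0.01 and 0.01 FPKM in the libraries labelled rgl2-13 DOF6ioex. At the estimated depth these levels correspond to 0.765 to 8.87 fragments per library, and 0.01 is the lowest value the tables list. The labelled libraries were below all 3 mock libraries, at an estimated 0.765 to 1.6 fragments against 3.87 to 5.32, and overlapped the estradiol libraries of DOF6ioex, which also overlapped mock. Labelled libraries 2 and 3 stood at 0.01 FPKM, the value also given to genes a library does not list. They may therefore hold no RBOHB fragment. No share of separate groups is given for genes below the filter, so nothing is drawn from this order. No difference in RBOHB was tested in the reported fit, since it did not pass the filter, and no fold is given from so few fragments. The alternative with no filter on low values held all 9 genes and called 0 of them in estradiol against mock. RBOHB overlaps AT1G09100 on the opposite strand, and whether strand was used in counting is not given in the sources used here, so reads of the pair cannot be told apart; the same holds for CAT2 with AT4G35080 and CSD1 with AT1G08840.

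Of 8 other NADPH oxidase genes, 4 are listed with values and 1 passed the filter, while RBOHC, RBOHG, RBOHH and RBOHJ are not listed. RBOHE, expressed at 3.72 to 5.59 FPKM, was not called in any comparison, with fitted differences of 0.075, 0.053 and 0.13 log2, and RBOHI, at 0.29 to 0.51 FPKM, was not tested. RBOHD thus held 84.1% to 91.7% of the summed FPKM of the 6 listed NADPH oxidase genes. That sum was 46.9, 52.5 and 48.6 FPKM in mock, 32.8, 35.1 and 34.8 FPKM with estradiol, and 47.3, 38.5 and 39.2 FPKM in the libraries labelled rgl2-13 DOF6ioex. The family sum was lower in every estradiol library of DOF6ioex than in every mock library, as RBOHD alone was.

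**Figure D4:**
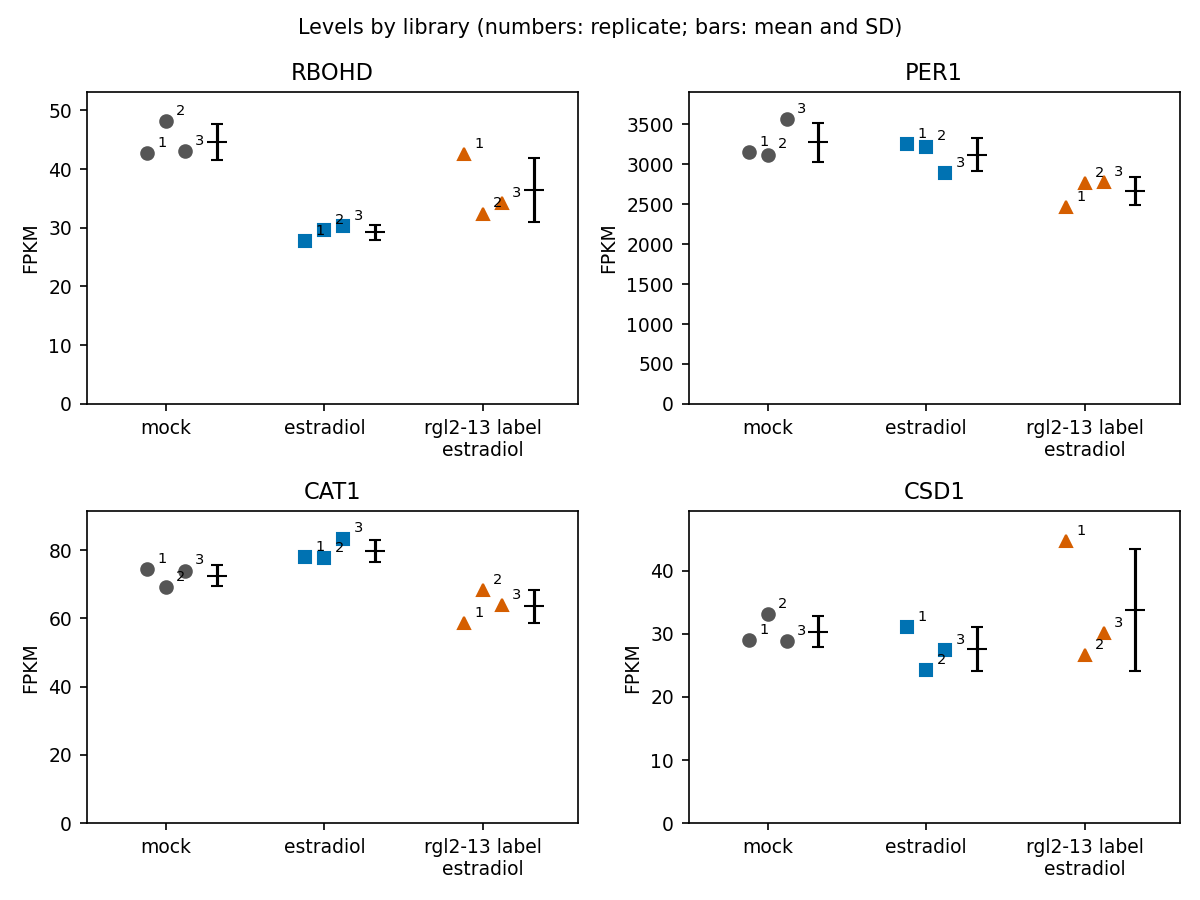
FPKM of RBOHD, PER1, CAT1 and CSD1 in each library, numbered by replicate, with group mean and SD (bars, n = 3) on axes that start at 0. RBOHD is lower in the 3 estradiol libraries of DOF6ioex than in mock, PER1 and CAT1 are lowest in the libraries labelled rgl2-13 DOF6ioex, and the CSD1 spread there comes from library 1 at 44.73 FPKM.

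CSD1 was at 29.02, 33.17 and 28.9 FPKM in mock, 31.08, 24.21 and 27.44 FPKM with estradiol, and 44.73, 26.59 and 30.1 FPKM in the libraries labelled rgl2-13 DOF6ioex. The groups overlapped in all 3 comparisons, and the value of 44.73 FPKM belongs to the library that stands apart. The fitted differences were -0.14 ± 0.16, 0.26 ± 0.16 and 0.12 ± 0.16 log2 (limma adjusted p = 0.883, 0.438 and 0.648). Without that library the value against DOF6ioex in estradiol was 0.043 and the value against mock -0.096 log2, so the direction against mock depends on it.

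CSD1 was a small part of its family at the transcript level. Superoxide dismutase genes summed to between 1950 and 2424 FPKM per library, of which CSD1 held 1.01% to 2.29% and MSD2, a manganese-dependent member, 84.3% to 89.3%. MSD2 averaged 2051 ± 122 FPKM in mock, 2119 ± 28.6 FPKM with estradiol and 1758 ± 98.9 FPKM in the libraries labelled rgl2-13 DOF6ioex (SD, n = 3). Its labelled libraries were below every other library, with fitted differences of -0.27 and -0.22 log2 against DOF6ioex in estradiol and against mock (limma adjusted p = 0.221 and 0.149). None of the 8 other genes of the list, which include the plastid copper/zinc enzyme CSD2 at 67.75 to 83.71 FPKM and the copper chaperone CCS, was called in any comparison. CCS was apart and higher in the labelled libraries. It differed by 0.23 and 0.17 log2 against DOF6ioex in estradiol and against mock (limma adjusted p = 0.246 and 0.193). Of the 8, 5 were fitted higher and 3 lower against DOF6ioex, and 2 higher and 6 lower against mock.

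PER1 reduces peroxides with a conserved cysteine and is abundant in mature seeds. It was at 3149.13, 3120.77 and 3562.16 FPKM in mock, at 3258.22, 3221.01 and 2888.55 FPKM with estradiol, and at 2463.48, 2767.81 and 2776.36 FPKM in the libraries labelled rgl2-13 DOF6ioex. Mock and estradiol overlapped, and the labelled libraries were below all 6 others. Group means were 3277 ± 247, 3123 ± 204 and 2669 ± 178 FPKM (SD, n = 3 each).

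The estradiol difference of PER1 in DOF6ioex was -0.069 ± 0.095 log2, with a 95% interval of -0.28 to 0.14 (limma adjusted p = 0.902). For the labelled libraries it was -0.23 ± 0.095 log2 against DOF6ioex in estradiol (95% interval -0.43 to -0.02; adjusted p = 0.30) and -0.30 ± 0.095 log2 against mock (adjusted p = 0.115), and neither passed the threshold. Without library 1 labelled rgl2-13 DOF6ioex these were -0.17 and -0.24 log2. Against DOF6ioex in estradiol 3 of the 8 genes were apart and lower (PER1, CAT1 and CAT3), as were 4.96% of all tested genes, and 1 was apart and higher (RBOHD), as were 15.8%. Against mock 3 of the 8 (PER1, CAT1 and RBOHD) were apart and lower, as were 3.49% of all tested genes, and 1 was apart and higher (VTC2), as were 27.3%.

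The seed storage protein and oil body genes were lower in the same libraries. Their sum was 109298 to 140373 FPKM in mock, 109718 to 114393 FPKM with estradiol and 91091 to 95777 FPKM in the libraries labelled rgl2-13 DOF6ioex. All 10 had a fitted value below 0 against DOF6ioex in estradiol and against mock, where 76.4% and 80.1% of all tested genes were higher. In each comparison 7 of 10 were apart and lower, beside 4.96% and 3.49% of all tested genes. CRU2, a cruciferin, fell against mock by 0.54 log2 (limma adjusted p = 0.0451) and no other was called. The list median was -0.25 log2 against DOF6ioex in estradiol and -0.38 log2 against mock, beside medians of 0.107 and 0.14 over all genes. EPR1, a highly expressed endosperm gene, was at 33814.82 to 67414.08 FPKM in the labelled libraries and overlapped the other groups. ICE1, an endosperm regulator, was at 24.62 to 25.33 FPKM there, below every estradiol library of DOF6ioex and overlapping mock, and 4 of 4 testa flavonoid genes were never above 0.3 FPKM. The part of these seed transcripts in the values of PER1 was not tested, and in bulk seeds fewer cells of a type and less RNA per cell cannot be told apart.

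Among peroxiredoxins PER1 held 60.4% to 72.6% of a summed 4081 to 5110 FPKM. PRXIIB and PRXIIC, cytosolic type II members with near-identical sequences between which reads may be split, averaged 635 and 430 FPKM in mock, 614 and 383 FPKM with estradiol and 679 and 446 FPKM in the labelled libraries. The last PRXIIC mean rests on library 1 at 578.97 FPKM, beside 393.2 and 367.08 FPKM in libraries 2 and 3. Of the 8 other peroxiredoxin genes 6 were tested and 0 were called in any comparison; their median difference was -0.079, 0.16 and 0.062 log2 in the 3 comparisons, beside 0.0391, 0.107 and 0.14 for all genes. Of 8 glutathione peroxidase-like genes 6 were tested and 0 called. GPX6, the highest of these, was at 473.39 to 557.67 FPKM over all libraries, and GPX1, the next, at 35.56 to 44.89 FPKM. GPX2 differed most, by 0.70 log2 against DOF6ioex in estradiol and 0.49 log2 against mock (limma adjusted p = 0.1435 and 0.127). In each of these comparisons 3 of the 6 were fitted higher and 3 lower.

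In estradiol against mock and in the labelled libraries against DOF6ioex, the fitted value of CAT2 had the opposite sign to those of CAT1 and CAT3. Against mock its sign is not settled: CAT2 was above 0 in the reported fit and below 0, as CAT1 and CAT3 were, in 4 of 15 alternatives (both other scalings, without mock replicate 3 and without library 1 of the labelled group). CAT1 was at 74.48, 69.14 and 73.99 FPKM in mock, 77.95, 77.53 and 83.36 FPKM with estradiol, and 58.6, 68.28 and 63.8 FPKM in the libraries labelled rgl2-13 DOF6ioex. The 3 groups did not overlap with each other: estradiol libraries of DOF6ioex were the highest and labelled libraries the lowest. Means were 72.5 ± 2.95, 79.6 ± 3.25 and 63.6 ± 4.84 FPKM (SD, n = 3).

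CAT1 differed by 0.13 ± 0.085 log2 with estradiol (limma adjusted p = 0.79), by -0.32 ± 0.085 log2 between the labelled libraries and DOF6ioex in estradiol (95% interval -0.51 to -0.14; adjusted p = 0.164), and by -0.19 log2 against mock (adjusted p = 0.19). Without library 1 labelled rgl2-13 DOF6ioex the latter 2 were -0.27 and -0.13 log2. The difference between labelled libraries and DOF6ioex in estradiol was the largest in size of the 8 genes in the reported fit, close to RBOHD at 0.30; without library 2 of the labelled group CSD1 was at 0.407, RBOHD at 0.376 and CAT1 at -0.375 log2. Relative to the median of all genes it was -0.43 log2.

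CAT2, known as the major leaf catalase, was at 1239.78, 1223.17 and 1130.09 FPKM in mock, 1034.03, 1035.98 and 1164.87 FPKM with estradiol, and 1324.77, 1164.34 and 1173.01 FPKM in the labelled libraries. The estradiol group overlapped both others through library 3. Fitted differences were -0.15, 0.18 and 0.026 log2, each ± 0.09 (limma adjusted p = 0.784, 0.358 and 0.864), the latter 2 of which were 0.12 and -0.034 log2 without library 1 labelled rgl2-13 DOF6ioex.

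CAT3 was at 1566.28, 1437.44 and 1504.75 FPKM in mock, 1535.17, 1527.36 and 1787.35 FPKM with estradiol, and 1335.88, 1425.26 and 1474.45 FPKM in the labelled libraries. The labelled libraries were below all DOF6ioex libraries in estradiol and overlapped mock. The differences were 0.10, -0.19 and -0.09 log2, each ± 0.091 (limma adjusted p = 0.841, 0.339 and 0.525). Without library 1 of the labelled group the latter 2 were -0.15 and -0.051 log2. CAT2 and CAT3 are known to be under circadian control in Arabidopsis seedlings, and 10 clock genes summed to 136 to 154 FPKM in mock, 154 to 160 FPKM with estradiol and 168 to 169 FPKM in the labelled libraries. No clock gene was called in the 3 comparisons. The highest were ELF4 at 50.16 to 67.25 FPKM and ELF3 at 19.33 to 32.16 FPKM, which with TOC1 made most of the sum. In the labelled libraries 5 of 10 were apart and higher against DOF6ioex in estradiol and 7 of 10 against mock. Over all tested genes 15.8% and 27.3% were. Against mock 9 were fitted higher and 1 lower, CCA1 the most at 0.56 log2 (limma adjusted p = 0.0643). The part of the clock genes in the catalase values was not tested.

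Together the catalases summed to between 2641 and 3036 FPKM per library. CAT3 held 49.1% to 58.9% of it, CAT2 38.4% to 48.7% and CAT1 2.16% to 2.94%. The CAT2 share was 43.0%, 44.8% and 41.7% in mock, 39.1%, 39.2% and 38.4% with estradiol and 48.7%, 43.8% and 43.3% in the labelled libraries. Every estradiol library of DOF6ioex had a lower CAT2 share and a higher CAT3 share than every library of the other groups. The shares are a description of sums and were not tested.

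**Figure D5:**
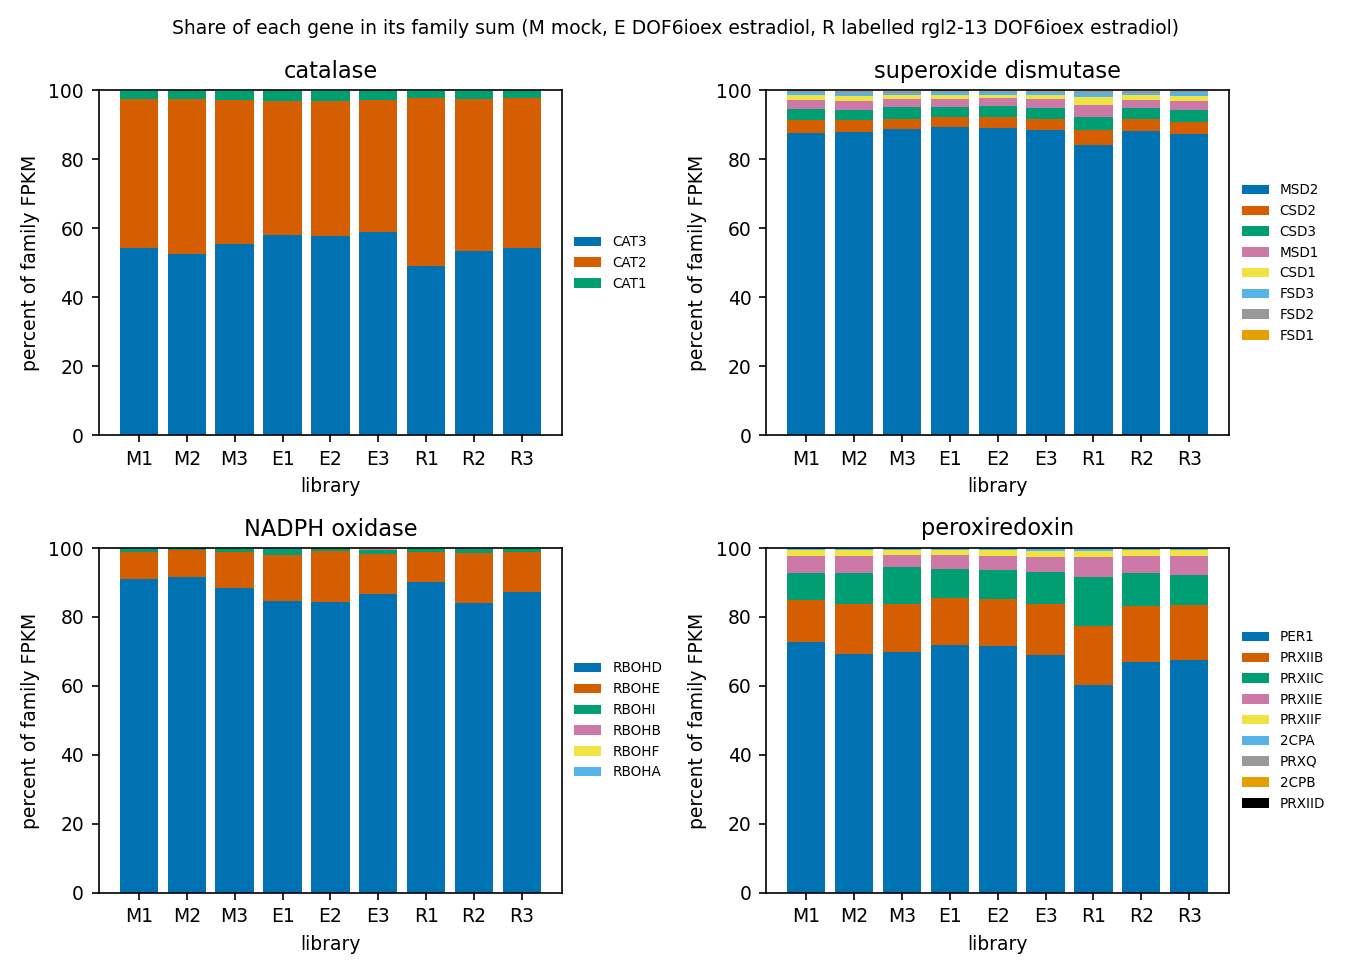
Percent of summed FPKM held by each gene of the catalase, superoxide dismutase, NADPH oxidase and peroxiredoxin families in each library (M mock, E DOF6ioex estradiol, R labelled rgl2-13 DOF6ioex estradiol; stacked bars). RBOHD holds 84.1% to 91.7% of the NADPH oxidase sum, PER1 60.4% to 72.6% of the peroxiredoxin sum, and CAT2 has its lowest shares in the 3 E libraries.

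APX6, which removes hydrogen peroxide with ascorbate, was at 12.67, 11.85 and 14.17 FPKM in mock, 15.71, 14.09 and 13 FPKM with estradiol and 11.68, 14.88 and 13.06 FPKM in the labelled libraries. All 3 groups overlapped. Differences were 0.14 ± 0.11, -0.11 ± 0.11 and 0.029 ± 0.11 log2 (limma adjusted p = 0.83, 0.603 and 0.876), and the latter 2 were -0.027 and 0.11 log2 without library 1 of the labelled group. APX6 held 15.5% to 28.8% of the summed ascorbate peroxidase FPKM, which was 54.6 to 75.6 FPKM.

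Of 7 other ascorbate peroxidase genes 3 were tested, and none was called. APX3, a peroxisomal member, was at 18.09 to 29.89 FPKM and SAPX, a plastid and mitochondrial member, at 17.59 to 27.67 FPKM. APX1, the other tested gene, was at 2.4 to 6.29 FPKM. All 3 were fitted higher in the labelled libraries, APX1 the most. It differed by 0.71 log2 against DOF6ioex in estradiol and 0.52 log2 against mock (limma adjusted p = 0.1165 and 0.113). APX1 was apart and higher in both, as were 15.8% and 27.3% of all tested genes. Of 12 genes of ascorbate and glutathione recycling, 11 were tested and none was called in any comparison. The highest were GSH1, the first enzyme of glutathione synthesis, and DHAR1, a dehydroascorbate reductase, which averaged 147 and 129 FPKM in mock, 157 and 127 FPKM with estradiol and 139 and 113 FPKM in the labelled libraries. Against mock, 5 of the 11 were apart and higher in the labelled libraries and 1, DHAR1, apart and lower, beside 27.3% and 3.49% of all tested genes. By fitted value 8 were higher and 3 lower. DHAR2 differed most, by 0.75 log2 (limma adjusted p = 0.0746), with labelled libraries at 19.89, 11.68 and 11.13 FPKM, the highest in library 1.

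VTC2 was at 97.84, 98.29 and 105.45 FPKM in mock, 103.73, 103.46 and 115.94 FPKM with estradiol and 108.05, 108.36 and 106.05 FPKM in the labelled libraries. The labelled libraries lay above every mock library, by 0.6 FPKM at the nearest, and between estradiol libraries. Differences were 0.097, -0.001 and 0.096 log2, each ± 0.08 (limma adjusted p = 0.83, 0.996 and 0.444), and relative to the median of all genes they were 0.058, -0.11 and -0.044 log2. The other 6 ascorbate synthesis genes were all tested and none was called; GME and GALDH, enzymes before and after the step of VTC2, were the highest at 32.08 to 53.14 and 33.84 to 44.3 FPKM.

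Marker genes that respond to oxidants in Arabidopsis were examined as a readout beside these enzymes. Of 10, 8 were tested and none was called in the 3 comparisons. Their sum was 332 to 365 FPKM in mock, 342 to 392 FPKM with estradiol and 326 to 415 FPKM in the labelled libraries, so the sums overlapped. ZAT12, a zinc finger protein induced by hydrogen peroxide, was the highest at 145.47 to 227.19 FPKM, followed by AT1G05340 at 84.57 to 112.54 FPKM. Most of the sum came from ZAT12 and AT1G05340, so it says little of the other markers. With estradiol 7 of the 8 were fitted higher and 1 lower, where 62.6% of all genes were higher. Against mock 1 of the 8, HSFA2, was apart and higher in the labelled libraries, as were 27.3% of all tested genes.

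Across the 8 tested genes the fitted values were as often above 0 as below it in 2 comparisons of the reported fit. With estradiol in DOF6ioex 4 were higher and 4 lower, where 62.6% of all genes were higher, and the median was 0.014 log2. Between the labelled libraries and DOF6ioex in estradiol 3 were higher and 5 lower, where 76.4% of all genes were higher, with a median of -0.054 log2. Against mock 4 were higher and 4 lower, where 80.1% of all genes were higher, with a median of -0.032 log2. That split depends on the scaling and on single libraries. With median-of-ratios and with upper quartile scaling 0 were higher and 8 lower against mock, with medians of -0.195 and -0.183 log2. The share of 80.1% belongs to the reported fit, and no such share is given for those scalings. With median-of-ratios scaling the median of all genes against mock was close to 0, as given at the end. All genes then lay about evenly above and below 0, and the 0 of 8 is to be read beside that. Both scalings left the counts in the other 2 comparisons as given. Without library 1 labelled rgl2-13 DOF6ioex 2 were higher and 6 lower against mock. Without mock replicate 2, mock replicate 3 or library 2 of the labelled group 3 were higher and 5 lower.

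The genes whose profile over the 9 libraries was most like that of each member were found by Pearson's r on log2(FPKM + 1) among 8936 tested genes averaging at least 5 FPKM, as a description with no test. RBOHD was most like AT1G24580 (r = 0.976) and MES10 (r = 0.965); AT1G24580 was at 52.6, 52.76 and 47.99 FPKM in mock, 26.24, 30.87 and 28.68 FPKM with estradiol and 48.28, 29.41 and 33.94 FPKM in the labelled libraries. That profile has the same high first labelled library as RBOHD. PER1 was most like AT1G02380 (r = 0.985) and AT3G47070 (r = 0.953), and CAT1 most like EMB2654 (r = 0.982) and AT1G15060 (r = 0.967). CAT2 paired with TUA6 (r = 0.981) and PBG1 (r = 0.977), and CAT3 with TPC1 (r = 0.919) and TLP11 (r = 0.913). For APX6 they were ELC (r = 0.955) and AT1G13780 (r = 0.92), for CSD1 NAC019 (r = 0.97) and PFN2 (r = 0.956), and for VTC2 UBP16 (r = 0.963) and AT3G05350 (r = 0.959). The 9 points of each r come from 3 groups and include the library that stands apart, and the highest of 8936 values is large by selection.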

How the data were processed

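RNA from 9 seed libraries was sequenced, and the authors deposited 6 pairwise tables of FPKM per gene with the log2 ratio of each pair (as deposited, per the file headers; 1 table is headed RPKM) and 2 lists of genes above their threshold. HISAT is named in the submitters' processing notes; no source used here gives its version, the genome build or the quantifier. Each DOF6ioex estradiol library appears in 2 tables with the same FPKM for all 19897, 19774 and 20264 shared genes. The tables were joined to 22555 genes by 9 libraries, and the 1217 to 2292 genes a library does not list were set to the lowest listed value, 0.01 FPKM. Of 22415 locus identifiers 22230 matched the RefSeq TAIR10.1 table, and the deposited transcript length equals a TAIR10.1 transcript for 67.1%, 6 of the 9 members included; sequences come from TAIR10.1 by gene annotation.

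limma 3.58.1 (R 4.3.3) with a mean-variance trend was fitted to log2(FPKM + 1) over all 9 libraries, a mean per group, for 13679 genes with at least 1 FPKM in at least 3 libraries, with Benjamini-Hochberg adjustment and a threshold of 0.05. A difference on this scale understates the change of low genes. The fit was also run on simulated data with independent normal noise per gene and no outlying library. That run therefore does not cover the library that stands apart, and no conclusion is drawn from it. FPKM holds no read totals; depth was estimated at 29400000 to 31300000 fragments from low values taken as whole multiples of 1 fragment, 82.67% to 89.27% of which came out whole within 0.15 (30% by chance). No interval for counting error is given. Alternatives were a pseudocount of 0.1, no filter, 2 other scalings, the 6 libraries compared, a replicate block and leaving out each library.

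Named genes are the 9 members, DOF6 and RGL2, and for each tested member the 2 tested genes with the highest r. From each other list they are up to 4 called genes or, where none is called, the 2 highest. CCS, APX1, DHAR2, GPX2, CCA1, TOC1 and HSFA2 were named after their values were seen. The members and lists were chosen with earlier results of these data known.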

Additional observations from a re-analysis of the deposited data

How the results depend on the processing

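Of 24 member results (8 genes in 3 comparisons) under 15 alternatives, 19 kept their sign in all, and 2, both of RBOHD, passed the threshold in any. With estradiol against mock, 0 members were called; the median-of-ratios scaling, the upper quartile scaling and the fit on 6 libraries each called 1, and leaving out a library gave 0 to 1. For the label against DOF6ioex it was 0 throughout (0 to 0), and against mock 0, then 1 with median-of-ratios, 1 with upper quartile and 0 to 1 on leaving out a library.

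Over all genes, 21 were called with estradiol: 4 with no filter, 56 with median-of-ratios, 57 with upper quartile, 105 with 6 libraries, 12 with the replicate block, and 5 to 90 without a library (90 without library 1 labelled rgl2-13 DOF6ioex). For the label against DOF6ioex 22 became 4 with no filter, 7 with 6 libraries, 11 with the replicate block and 8 to 26 without a library. Against mock 78 became 5, 138, 130, 18 and 12 in the order no filter, median-of-ratios, upper quartile, 6 libraries and replicate block, and 7 to 224 without a library (7 without mock replicate 2). The share of calls that were higher went from 86.4% to 76% with median-of-ratios and 77.8% with upper quartile for the label against DOF6ioex, and from 79.5% to 47.1% and 52.3% against mock. Replicate numbers showed no sign of pairing the libraries. Residual correlations of the same number were -0.412 to 0.253, and 1 of 9 libraries correlated best with its own number. The labels do not say whether the numbers pair, and 3 libraries per group are too few to exclude it. No member was called with the block.

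Fitted log2 values that changed sign, none of them called, were these. For the label against DOF6ioex, VTC2 ran from -0.029 to 0.053 on leaving out each library in turn. Against mock, median-of-ratios scaling gave CAT2 -0.14, APX6 -0.12, CSD1 -0.040 and VTC2 -0.065, and upper quartile scaling gave CAT2 -0.125, APX6 -0.11, CSD1 -0.029 and VTC2 -0.053. Leaving out each library in turn gave ranges of -0.034 to 0.059 for CAT2, -0.054 to 0.108 for APX6 and -0.096 to 0.269 for CSD1. Scaling moved the median of all genes, from 0.0391, 0.107 and 0.14 to 0.00182, 0.00596 and 0.000485 with median-of-ratios; the cause of the other reversals was not tested. Depth limits RBOHB among the members.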
